A study of Mus musculus with 8 samples.

Results

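The genes examined were 42 lysosomal genes of mouse intestinal organoids, comprising 19 genes for the acid hydrolases of the lysosome, 9 for other lysosomal proteins and 14 for the vacuolar proton pump (V-ATPase) and its accessory proteins. They were taken from a list of gene symbols, each matched by its Ensembl identifier, and made up 42 of the 13852 genes with a value. All 42 passed the filter on low values, a mean of at least 0.5 FPKM over the 8 samples. Each gene was compared between 4 WT and 4 MG53-TG samples of organoids, that is, of epithelial cultures grown in Matrigel with IntestiCult OGM medium from isolated intestinal crypts. MG53-TG mice overexpress MG53 (Trim72), a tripartite motif protein known for membrane repair in muscle, in all tissues, and the WT mice were their littermates. The promoter driving the transgene, the age of the mice and the treatment of these organoids are not given in the sources used here, and whether the mice also carried the Lgr5 reporter knock-in of other organoids in the study was not resolved. The labels do not say whether the samples of a group came from separate mice or cultures, so the p-values measure the spread between these samples, which may be technical.

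Lysosomes degrade proteins, glycans and lipids that arrive by endocytosis and autophagy. Their hydrolases work at the acid pH that the V-ATPase sets up by pumping protons into the lumen, through a membrane ring (V0) turned by a cytosolic ATP-hydrolysing head (V1). Many genes of both kinds carry the CLEAR element, an extended E-box, near their start site and are activated through it by the transcription factors TFEB and TFE3, which mTORC1 holds in the cytoplasm when nutrients are plentiful. In the gut, lysosomes are prominent in absorptive enterocytes, which take up luminal protein and lipid.

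The values are FPKM, fragments scaled to transcript length and to sequencing depth, so levels can be compared between genes, whereas the depth behind them is unknown. Trim72, which checks the labels, was without an entry in all WT samples and had 16.4, 27.4, 31.9 and 36.5 FPKM in the MG53-TG samples. Of 10841 genes tested, 44.4% passed the threshold, an adjusted p of at most 0.05 in limma with Benjamini-Hochberg adjustment; 15.5% were higher and 28.9% lower in MG53-TG, and the median log2 fold change was -0.17. Median-of-ratios scaling moved that median by 0.16 and raised the higher share of the calls from 34.9% to 50.1%. The epithelial marker Epcam was at 398 to 507 FPKM in all samples, while of the 7 epithelial markers 4 were lower (Cdh1, Krt8, Krt18 and Cdx2) and 1 higher (Vil1) in MG53-TG; their summed level was 1958 to 2316 FPKM in WT and 1671 to 2168 FPKM in MG53-TG. Cell type and proliferation markers moved with the genotype: 10 of 10 enterocyte markers were higher in MG53-TG (summed level 927 to 1107 FPKM in WT and 11751 to 12764 FPKM in MG53-TG), 6 of 6 measured Paneth markers were lower (1228 to 1647 against 258 to 459 FPKM), as were 5 of 7 goblet markers (508 to 600 against 151 to 379 FPKM) and 7 of 8 proliferation markers (485 to 529 against 133 to 364 FPKM). The remaining goblet markers had no call, with Clca1 lower and Zg16 higher in MG53-TG. Zg16 was at 5.25 to 11.2 FPKM in WT and 7.57, 11.8, 53.0 and 62.2 FPKM in MG53-TG. For crypt organoids with MG53 overexpression and the Lgr5 reporter, the paper reports lower absorptive and higher secretory markers in the transcriptome. The enterocyte, Paneth and most goblet markers here moved the opposite way. Whether those organoids are these samples was not resolved. The part of the cell type and proliferation markers in the values of the lysosomal genes was not tested. In bulk samples fewer cells of a type and less RNA per cell cannot be told apart. Of 16 markers of macrophages and other immune cells, which are rich in lysosomal proteases, 8 had no entry, among them Adgre1 and Csf1r, and their level is unknown, since Rraga and Map1lc3b, which most cells express, had no entry either. The 8 with an entry summed to 0.961 to 2.04 FPKM in WT and 0.119 to 1.16 FPKM in MG53-TG. In WT most of this was Mrc1, a macrophage receptor, at 0.845, 1.16, 1.75 and 1.18 FPKM. In MG53-TG Mrc1 was at 0, 0, 0.419 and 0.965 FPKM (log2 fold change -0.78, adjusted p = 0.028 in limma, and 0.0612 with median-of-ratios scaling). Lyz2 went the other way without overlap, at 0 to 0.0616 FPKM in WT and 0.119 to 0.296 FPKM in MG53-TG. Cd74 was at 0.0738 to 0.138 FPKM in WT and at 0 in MG53-TG. Lyz2 and Cd74 were under the filter and were not tested. Of 12 mesenchyme markers 6 had no entry. The collagen genes Col1a2 and Col3a1 were listed at 0 in all WT samples and at 2.07, 0.926 and 0.739 FPKM and 1.62, 0.904 and 1.25 FPKM in MG53-TG samples 2, 3 and 4, with no value in sample 1, which the fit left out (adjusted p = 0.0037 and 0.000644 in limma). Col1a1 was likewise at 0 in WT and at 0.465, 0.659 and 0.647 FPKM in these 3 samples, and Vim was at 1.80 to 3.24 FPKM in WT and 0.945 to 2.45 FPKM in MG53-TG. The part of these cells in the values was not tested.

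The E-box letters of the CLEAR element were looked for in the promoters of the members, from 250 bases before to 50 bases after each RefSeq start site (GRCm38.p6). Of the 42 members, 34 had a promoter in this collection. The motif CACGTG, which reads the same on both strands, occurred in 12 of these 34 genes (35.3%) and in 8.09% of all 27025 genes with a promoter. It was found in 7 of 16 hydrolase genes, 2 of 8 other lysosomal genes and 3 of 10 V-ATPase genes. The longer TCACGTGA, which contains it, was in 6 of the 34 genes (17.6%) against 1.12% of all genes. Its form of 10 bases, with G before and C after it, was in 0 of 34 against 0.37% of all genes. A match is a description of these letters and no proof of binding. The following windows of 7 members, shown because 5 of these genes passed the threshold and Mcoln1 and Ctsl came nearest to it among the motif genes without a call, read 5′ to 3′ on the strand of the gene with CACGTG in capitals and up to 10 bases on either side.
Ctsa (chr2:164833751-164833776, plus strand): agcaaactgtCACGTGatgcagatgc
Ctsa (chr2:164833768-164833793, plus strand): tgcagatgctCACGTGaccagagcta
Ctsl (chr13:64370741-64370766, minus strand): cgttagaagcCACGTGctgatctaaa
Glb1 (chr9:114401020-114401045, plus strand): gcttctgagtCACGTGgcctacagag
Naglu (chr11:101070011-101070036, plus strand): accttcaggtCACGTGgcccgaggtc
Lamp1 (chr8:13159090-13159160, plus strand): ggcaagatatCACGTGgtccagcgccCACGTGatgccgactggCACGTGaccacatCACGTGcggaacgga
Mcoln1 (chr8:3500438-3500463, plus strand): tcgcgcttgtCACGTGttcagttcag
Mcoln1 (chr8:3500464-3500489, plus strand): gcgccccgctCACGTGaccgcggcgc
Atp6v0d1 (chr8:105566052-105566077, minus strand): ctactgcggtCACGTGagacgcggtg
Lamp1 carried the motif 4 times within this stretch before its start site. In Atp6v0d1 the first base of the motif lay 3 bases before the annotated start. The Ctsa matches belonged to an annotated start 900 bases downstream of the start that carried most of its FPKM.

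In MG53-TG organoids, 7 of 19 hydrolase genes were higher, 4 were lower and 8 did not pass the test. The share called was 57.9%, against 44.4% of all genes, and the median log2 fold change was 0.03, against -0.17 for all genes. With median-of-ratios scaling these medians were 0.21 and -0.01, and leaving out single samples gave hydrolase medians on both sides of 0. The other lysosomal genes had 2 higher, 1 lower and 6 without a call (median 0.24). Of the 14 V-ATPase genes 2 were higher, 0 lower and 12 without a call, a share called of 14.3% (median 0.18); at an unadjusted p under 0.05 in limma 4 were higher and 0 lower. With median-of-ratios scaling the higher and lower counts were 8 and 2 for hydrolases, 4 and 1 for other lysosomal genes, and 4 and 0 for the V-ATPase, against 20.4% higher and 20.3% lower of all genes. Across the 42 members, 11 were higher and 5 lower, and 26 did not pass the test. The samples of the groups did not overlap for 13 members higher and 6 lower in MG53-TG, and each of these 19 had the smallest p that the two-sided exact permutation test over 70 relabellings can give, 0.0286 before any adjustment. Among all genes tested, groups did not overlap in 44.6%, with 15.8% on the higher and 28.9% on the lower side.

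**Figure D1:**
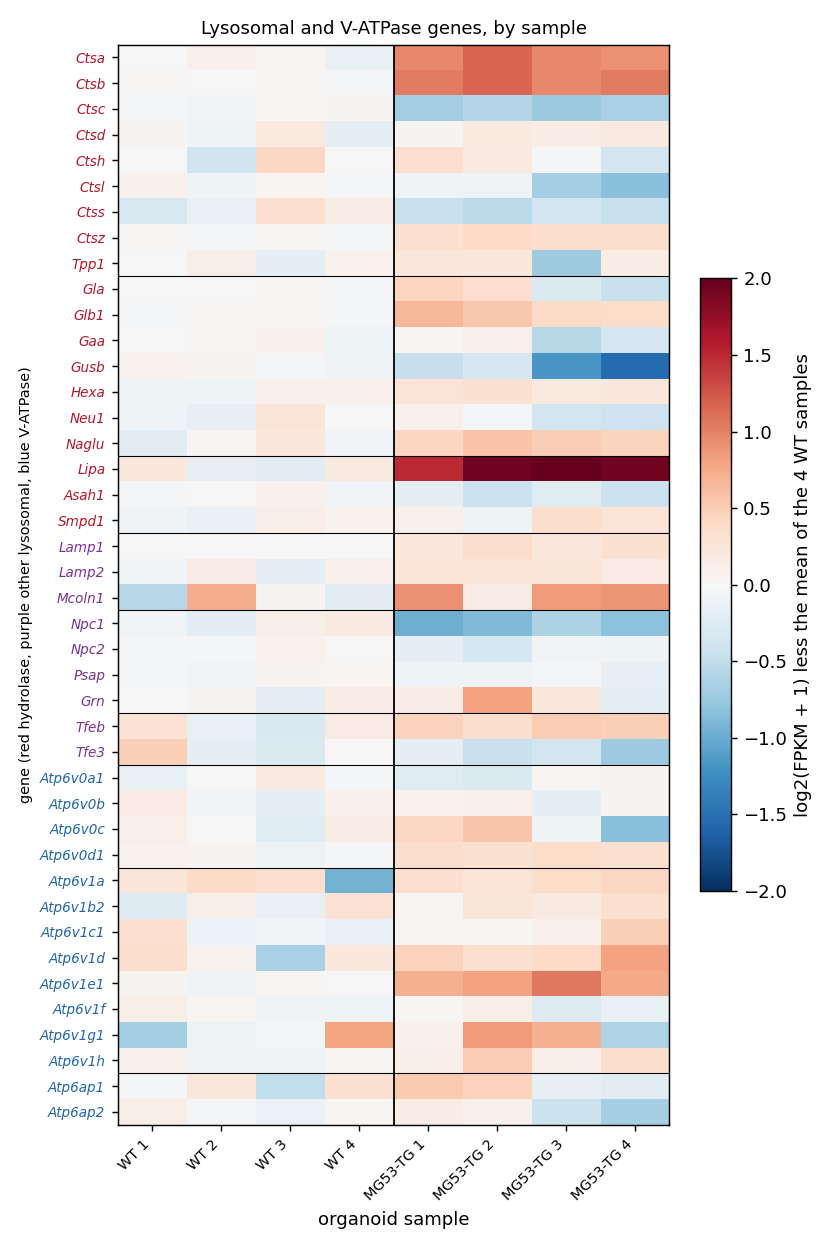
The 42 members (vertical axis) in each of the 8 samples (horizontal axis), coloured by log2(FPKM + 1) less the mean of the 4 WT samples, in the order proteases, glycosidases, lipid hydrolases, membrane proteins, lipid transfer and activator proteins, transcription factors, V0, V1 and accessory subunits. Ctsa, Ctsb and Lipa are red in all 4 MG53-TG samples, Ctsc and Npc1 are blue in all 4, and Gusb, Ctsl and Gla are lower in MG53-TG samples 3 and 4 than in samples 1 and 2.

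The lysosomal proteases moved in both directions, with 3 of 9 higher and 2 lower. Cathepsin B (Ctsb, ENSMUSG00000021939, chr14:63122462-63145923 on the plus strand), an abundant cysteine protease, had 94.3, 92.2, 93.4 and 89.7 FPKM in the WT samples and 192, 208, 180 and 190 FPKM in the MG53-TG samples. Each MG53-TG sample was far above each WT sample in this gene, 2.08 times in the mean (log2 fold change 1.05, SE 0.07, adjusted p = 1.65e-05). Cathepsin A (Ctsa, ENSMUSG00000017760, chr2:164832873-164841032 on the plus strand), a serine carboxypeptidase that also protects β-galactosidase and neuraminidase in a complex, had 28.7, 30.7, 29.6 and 26.3 FPKM in the WT samples and 57.1, 65.9, 57 and 55 FPKM in the MG53-TG samples. The groups were far apart, by 2.04 times (log2 fold change 1.00, SE 0.09, adjusted p = 7.16e-05). Cathepsin Z (Ctsz, ENSMUSG00000016256, chr2:174427493-174439039 on the minus strand), a carboxypeptidase, was at 92.6, 89.6, 93.2 and 90.3 FPKM in the WT samples and 114, 121, 118 and 117 FPKM in the MG53-TG samples, with the lowest MG53-TG sample above the highest WT sample (log2 fold change 0.36, SE 0.07, adjusted p = 0.00316).

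Cathepsin C (Ctsc, ENSMUSG00000030560, chr7:88278085-88310888 on the plus strand), the dipeptidyl peptidase that activates granule serine proteases, went the other way. Its values were 40.9, 40.8, 43.6 and 44.1 FPKM in the WT samples and 25.7, 27.9, 24.8 and 26.7 FPKM in the MG53-TG samples, lower in every MG53-TG sample (log2 fold change -0.67, SE 0.08, adjusted p = 0.000338), while its end events alone gave -0.27 (adjusted p = 0.255). Cathepsin S (Ctss, ENSMUSG00000038642, chr3:95526786-95556403 on the plus strand), best known for trimming the invariant chain of MHC class II in antigen-presenting cells, had 5.85, 6.73, 9.64 and 8.46 FPKM in the WT samples and 5.25, 4.93, 5.58 and 5.29 FPKM in the MG53-TG samples. The WT samples spread widely here, and the lowest of them lay just above the highest MG53-TG sample (log2 fold change -0.45, SE 0.15, adjusted p = 0.037). The Ctss call did not hold with median-of-ratios scaling, which gave -0.28 (adjusted p = 0.185), with quantile normalization (-0.29, adjusted p = 0.173) or without MG53-TG samples 3 and 4 (-0.49, adjusted p = 0.0968), and it was lost on leaving out any sample other than WT sample 1.

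The remaining proteases did not pass. Cathepsin D (Ctsd), the main aspartic protease, was at 59.7 to 77.8 FPKM (log2 fold change 0.14, SE 0.10, 95% interval -0.08 to 0.37, adjusted p = 0.278), and passed only with median-of-ratios scaling (0.33, adjusted p = 0.0493). Cathepsin L (Ctsl), an endopeptidase, was at 37, 32.4, 35.8 and 33.6 FPKM in WT and 33.1, 33, 21.1 and 19 FPKM in MG53-TG. Samples 1 and 2 of MG53-TG lay within the WT range and samples 3 and 4 below it (log2 fold change -0.41, SE 0.19, 95% interval -0.83 to 0.01, adjusted p = 0.1). Leaving out MG53-TG sample 1 or sample 2 gave a call for Ctsl. The aminopeptidase cathepsin H (Ctsh) ranged over 24 to 42.7 FPKM (log2 fold change 0.03, SE 0.20, 95% interval -0.42 to 0.48, adjusted p = 0.917), and tripeptidyl peptidase 1 (Tpp1) over 9.15 to 18.4 FPKM (log2 fold change -0.03, SE 0.21, 95% interval -0.51 to 0.45, adjusted p = 0.925).

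Among the glycosidases 3 of 7 were higher and 1 lower. β-Galactosidase (Glb1, ENSMUSG00000045594, chr9:114401076-114474898 on the plus strand), which removes galactose from GM1 ganglioside and keratan sulphate, had 42.1, 43.1, 43.2 and 42 FPKM in the WT samples and 68.2, 62.7, 55.7 and 55 FPKM in the MG53-TG samples. The WT samples were close together and all MG53-TG samples lay above them (log2 fold change 0.49, SE 0.09, adjusted p = 0.00316). The gene for the α subunit of β-hexosaminidase (Hexa, ENSMUSG00000025232, chr9:59539540-59565109 on the plus strand), which degrades GM2 ganglioside, had 41.5, 41.8, 46.7 and 47 FPKM in the WT samples and 52.8, 55, 51 and 51.6 FPKM in the MG53-TG samples, a small difference with a narrow gap between the groups (log2 fold change 0.25, SE 0.08, adjusted p = 0.0386). The call of Hexa was lost with the replicate number as a block (adjusted p = 0.0923) and on leaving out any of the MG53-TG samples or WT samples 1 or 2. α-N-acetylglucosaminidase (Naglu, ENSMUSG00000001751, chr11:101070012-101077672 on the plus strand), an enzyme of heparan sulphate breakdown, was low throughout, with 3.26, 4.1, 4.76 and 3.77 FPKM in the WT samples and 5.66, 6.37, 5.92 and 5.74 FPKM in the MG53-TG samples and no overlap between the groups (log2 fold change 0.49, SE 0.12, adjusted p = 0.0114).

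β-Glucuronidase (Gusb, ENSMUSG00000025534, chr5:129989011-130003049 on the minus strand), which acts on glycosaminoglycans, was the glycosidase that fell. It was at 17.7, 17.5, 16.4 and 15.8 FPKM in the WT samples and 12, 13.2, 6.99 and 5.14 FPKM in the MG53-TG samples. All MG53-TG samples were below all WT samples, and samples 3 and 4 were far below samples 1 and 2 (log2 fold change -0.87, SE 0.25, adjusted p = 0.0218). Without MG53-TG samples 3 and 4 its log2 fold change was -0.40 (adjusted p = 0.017), and the call was lost without MG53-TG sample 3, WT sample 1 or WT sample 2. α-Galactosidase A (Gla), the enzyme of globotriaosylceramide breakdown, had 6.6, 6.55, 6.73 and 6.44 FPKM in WT and 9.27, 8.52, 5.21 and 4.58 FPKM in MG53-TG. Here samples 1 and 2 of MG53-TG lay above the whole WT range and samples 3 and 4 below it (log2 fold change 0.01, SE 0.20, 95% interval -0.45 to 0.47, adjusted p = 0.974). Without samples 3 and 4 the log2 fold change of Gla was 0.38 (adjusted p = 0.018). Acid α-glucosidase (Gaa), which degrades lysosomal glycogen, ranged over 9.64 to 15.8 FPKM (log2 fold change -0.19, SE 0.15, 95% interval -0.54 to 0.16, adjusted p = 0.343), and neuraminidase 1 (Neu1), which removes sialic acids, over 26.3 to 42.4 FPKM (log2 fold change -0.18, SE 0.15, 95% interval -0.52 to 0.15, adjusted p = 0.346).

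Of the 3 lipid hydrolases, lysosomal acid lipase (Lipa, ENSMUSG00000024781, chr19:34492318-34527474 on the minus strand) showed the largest difference of all members. This enzyme hydrolyses the cholesteryl esters and triglycerides of endocytosed lipoproteins. Lipa had 4.55, 3.29, 3.09 and 4.42 FPKM in the WT samples and 12.5, 17.5, 19.3 and 17.3 FPKM in the MG53-TG samples. The lowest MG53-TG sample was well above the highest WT sample, and the mean was 4.33 times that in WT (log2 fold change 1.86, SE 0.17, adjusted p = 5.59e-05). The value rests on transcript end events, since the start events of Lipa gave none. Acid ceramidase (Asah1, ENSMUSG00000031591, chr8:41340197-41374773 on the minus strand), which splits ceramide, had 44.7, 45.6, 48.9 and 44.2 FPKM in the WT samples and 40, 33.6, 38.4 and 33.7 FPKM in the MG53-TG samples, lower in every MG53-TG sample (log2 fold change -0.33, SE 0.09, adjusted p = 0.0194), but the log2 fold change became -0.14 (adjusted p = 0.306) under median-of-ratios scaling. The call of Asah1 was also lost without WT sample 3. Acid sphingomyelinase (Smpd1) was at 2.86 to 4.4 FPKM and overlapped (log2 fold change 0.16, SE 0.13, 95% interval -0.14 to 0.46, adjusted p = 0.361).

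**Figure D2:**
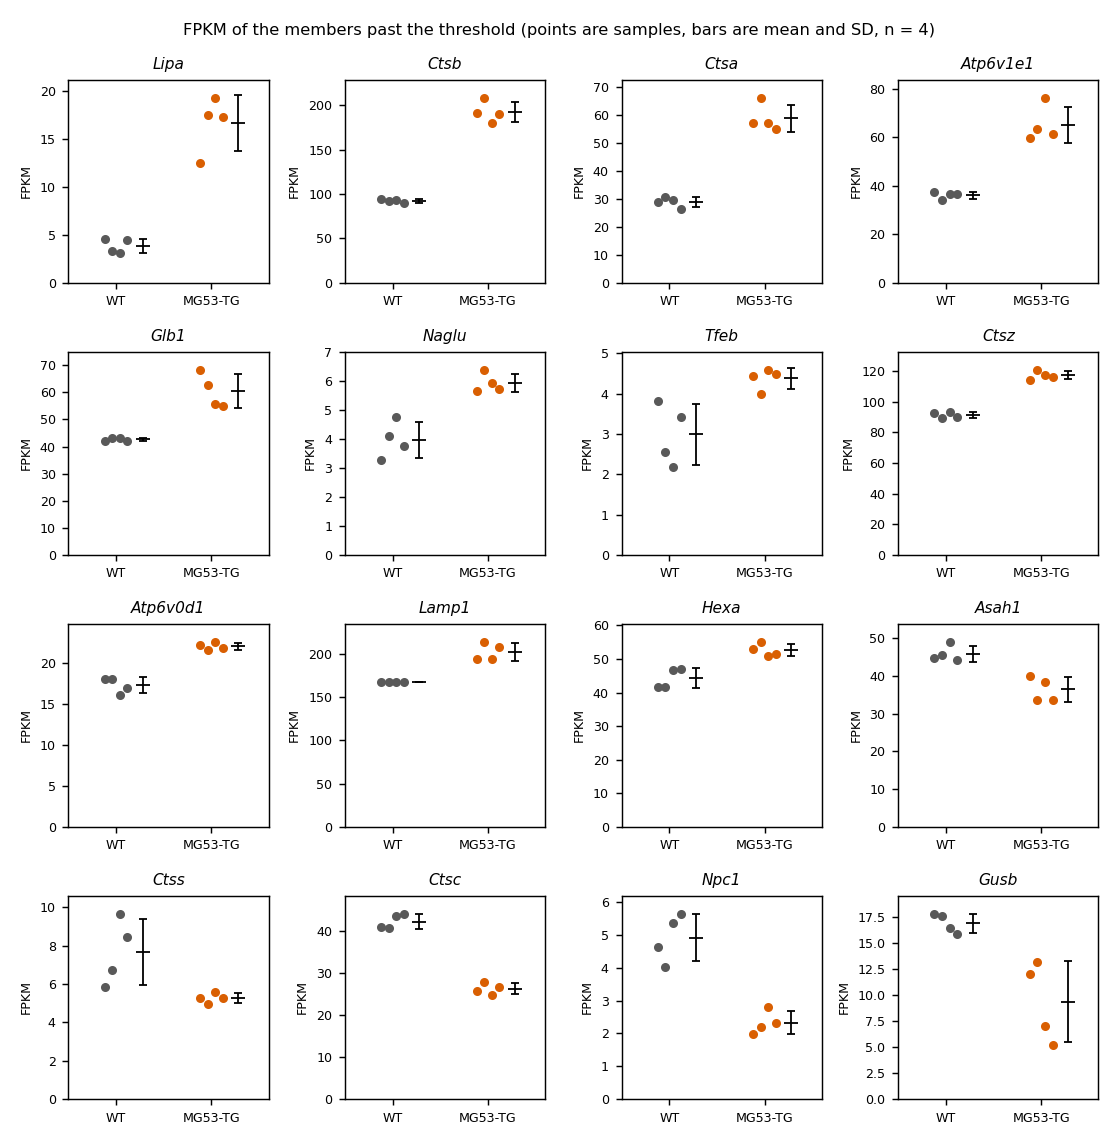
FPKM (vertical axis, from 0) of the 16 members past the threshold in the 4 WT and 4 MG53-TG samples, in order of log2 fold change from Lipa at 1.86 to Gusb at -0.87. Points are samples and bars are the mean and SD; the groups do not overlap in any of the 16 genes, while the gap is narrow in Tfeb, Hexa and Ctss.

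The abundant membrane glycoprotein LAMP1 (Lamp1, ENSMUSG00000031447, chr8:13159161-13175338 on the plus strand), the most strongly expressed member, had 167, 167, 167 and 168 FPKM in the WT samples and 194, 213, 193 and 207 FPKM in the MG53-TG samples. The WT samples were almost identical and the MG53-TG samples lay 1.21 times higher in the mean (log2 fold change 0.27, SE 0.07, adjusted p = 0.0123). Under quantile normalization the log2 fold change of Lamp1 was 0.06 (adjusted p = 0.578). LAMP2 (Lamp2), which also serves chaperone-mediated autophagy through one of its isoforms, had 62.1, 72, 57.2 and 69.4 FPKM in the WT samples and 78.9, 78.7, 76.6 and 73.1 FPKM in the MG53-TG samples. The groups did not overlap, by a narrow margin, and the test missed the threshold (log2 fold change 0.24, SE 0.09, 95% interval 0.03 to 0.45, adjusted p = 0.0647), which it passed with median-of-ratios scaling (0.43, adjusted p = 0.00819). The calcium channel TRPML1 (Mcoln1) was at 3.03, 8.93, 5.18 and 4.19 FPKM in WT and 10.3, 5.6, 9.78 and 9.99 FPKM in MG53-TG, with WT sample 2 high and MG53-TG sample 2 low for their groups (log2 fold change 0.70, SE 0.29, 95% interval 0.04 to 1.35, adjusted p = 0.0773). Leaving out either of these samples gave a call, as did median-of-ratios scaling (0.86, adjusted p = 0.0497).

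Among Npc1, Npc2, Psap and Grn, grouped as lipid transfer and activator proteins, 1 of 4 passed, in the direction opposite to Lipa. NPC1 (Npc1, ENSMUSG00000024413, chr18:12189692-12236400 on the minus strand), the membrane protein that moves cholesterol out of the lysosome, had 4.65, 4.03, 5.36 and 5.64 FPKM in the WT samples and 2, 2.2, 2.81 and 2.32 FPKM in the MG53-TG samples. Every MG53-TG sample was below every WT sample, and the mean was 0.474 of that in WT (log2 fold change -0.83, SE 0.13, adjusted p = 0.00149). Its soluble partner NPC2 (Npc2) had 81.6, 82.5, 87.8 and 84.1 FPKM in WT and 74.3, 65.3, 80.4 and 78.6 FPKM in MG53-TG, which did not overlap but differed little (log2 fold change -0.17, SE 0.09, 95% interval -0.37 to 0.03, adjusted p = 0.143). Prosaposin (Psap), the precursor of the sphingolipid activators, was among the most abundant members at 103 to 120 FPKM (log2 fold change -0.09, SE 0.07, 95% interval -0.25 to 0.07, adjusted p = 0.344), and progranulin (Grn) ranged over 16.9 to 34.9 FPKM (log2 fold change 0.24, SE 0.20, 95% interval -0.21 to 0.69, adjusted p = 0.346). The direction of Npc2 and Psap flipped with median-of-ratios scaling, to 0.02 and 0.10, Npc2 passed as lower without MG53-TG samples 3 and 4 (-0.27, adjusted p = 0.0401), and Psap passed as lower with quantile normalization (-0.25, adjusted p = 0.0267).

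The transcription factor TFEB (Tfeb, ENSMUSG00000023990, chr17:47737030-47792419 on the plus strand) was low but higher in MG53-TG, with 3.82, 2.55, 2.19 and 3.41 FPKM in the WT samples and 4.43, 4, 4.58 and 4.49 FPKM in the MG53-TG samples. The MG53-TG samples were close together and just above WT sample 1, the highest of its group (log2 fold change 0.45, SE 0.15, adjusted p = 0.0379). The call of Tfeb was lost with the replicate number as a block (adjusted p = 0.0589), with no filter on low values (adjusted p = 0.0507), with start events only (adjusted p = 0.0671), without MG53-TG samples 3 and 4 together (0.40, adjusted p = 0.156) and on leaving out any MG53-TG sample but sample 2, or WT samples 2 or 3. TFE3 (Tfe3) had 10.2, 6.1, 5.62 and 7.02 FPKM in WT and 6.12, 4.9, 5.27 and 3.88 FPKM in MG53-TG, which overlapped (log2 fold change -0.43, SE 0.19, 95% interval -0.86 to 0.00, adjusted p = 0.0946), and its end events alone passed (-0.35, adjusted p = 0.0444). These are transcript levels, and the location of the proteins was not measured.

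Of the 4 V0 subunits 1 was higher. The d subunit that links the ring to the central stalk (Atp6v0d1, ENSMUSG00000013160, chr8:105524465-105566047 on the minus strand) had 18.1, 18.1, 16.1 and 17 FPKM in the WT samples and 22.3, 21.7, 22.6 and 21.8 FPKM in the MG53-TG samples, with the groups well separated (log2 fold change 0.33, SE 0.08, adjusted p = 0.0122). The a1 subunit (Atp6v0a1), which holds the proton channels, was at 10.5 to 14.8 FPKM (log2 fold change -0.11, SE 0.12, 95% interval -0.39 to 0.16, adjusted p = 0.479), and the c″ ring subunit (Atp6v0b) at 31.6 to 40.9 FPKM (log2 fold change 0.01, SE 0.11, 95% interval -0.24 to 0.26, adjusted p = 0.937). The proteolipid c (Atp6v0c), which forms most of the ring, was the most abundant pump transcript and uneven in MG53-TG, with 143, 134, 112 and 147 FPKM in the WT samples and 178, 196, 125 and 74.1 FPKM in the MG53-TG samples (log2 fold change 0.01, SE 0.28, 95% interval -0.62 to 0.64, adjusted p = 0.976). MG53-TG samples 1 and 2 lay above all WT samples and sample 4 below all of them, and without samples 3 and 4 the log2 fold change was 0.49 (adjusted p = 0.0253). The annotation holds processed pseudogenes of Atp6v0c, among which its reads could be split, so its level is uncertain.

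Of the 8 V1 subunits 1 was higher. Subunit E1 (Atp6v1e1, ENSMUSG00000019210, chr6:120794305-120822793 on the minus strand), which forms the peripheral stalks with subunit G, had 37.3, 34.1, 36.5 and 36.4 FPKM in the WT samples and 59.6, 63.5, 76.1 and 61.3 FPKM in the MG53-TG samples. The WT samples were tight and all MG53-TG samples lay far above them, by 1.8 times (log2 fold change 0.83, SE 0.10, adjusted p = 0.000269). Its stalk partner G1 (Atp6v1g1) did not pass. That gene had 31.1, 46.9, 49.6 and 88 FPKM in the WT samples and 53.3, 91.9, 82.9 and 32.4 FPKM in the MG53-TG samples (log2 fold change 0.26, SE 0.38, 95% interval -0.61 to 1.12, adjusted p = 0.61), and each group held both low and high samples. Subunit H (Atp6v1h), which inhibits ATP hydrolysis when the head is detached, was at 20.9 to 31.7 FPKM. All its MG53-TG samples were above the WT samples, and it missed the threshold (log2 fold change 0.28, SE 0.11, 95% interval 0.03 to 0.54, adjusted p = 0.0665) but passed with median-of-ratios scaling (0.47, adjusted p = 0.00953). Subunit D of the rotor (Atp6v1d) had 18.5, 15, 8.71 and 16.6 FPKM in the WT samples and 19.9, 17.9, 19 and 25.6 FPKM in the MG53-TG samples (log2 fold change 0.50, SE 0.22, 95% interval 0.00 to 0.99, adjusted p = 0.0941) and likewise passed with median-of-ratios scaling (0.68, adjusted p = 0.0453).

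The catalytic subunit A (Atp6v1a) was at 26.2, 28.8, 27.8 and 10.9 FPKM in WT and 27.9, 26.5, 28.5 and 29.5 FPKM in MG53-TG (log2 fold change 0.34, SE 0.27, 95% interval -0.28 to 0.96, adjusted p = 0.339). Apart from WT sample 4 the samples lay close together. Its partner in the head, B2 (Atp6v1b2), ranged over 29.6 to 44.8 FPKM (log2 fold change 0.19, SE 0.13, 95% interval -0.11 to 0.50, adjusted p = 0.272). Subunit C1 (Atp6v1c1), which is released when the pump disassembles, ranged over 13.3 to 21.2 FPKM (log2 fold change 0.16, SE 0.15, 95% interval -0.18 to 0.50, adjusted p = 0.401), and subunit F of the rotor (Atp6v1f) over 73.2 to 95.8 FPKM (log2 fold change -0.07, SE 0.11, 95% interval -0.31 to 0.17, adjusted p = 0.63). The accessory proteins, Ac45 (Atp6ap1) and the prorenin receptor (Atp6ap2), were at 19.2 to 39.9 FPKM (log2 fold change 0.15, SE 0.23, 95% interval -0.37 to 0.68, adjusted p = 0.616) and 34.4 to 61 FPKM (log2 fold change -0.22, SE 0.18, 95% interval -0.63 to 0.20, adjusted p = 0.362). Of the 12 V-ATPase genes without a call, 8 had intervals that reach the 0.33 of Atp6v0d1, and those of Atp6v0a1, Atp6v0b, Atp6v1f and Atp6ap2 end below it, so the missing calls do not show equal levels.

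**Figure D3:**
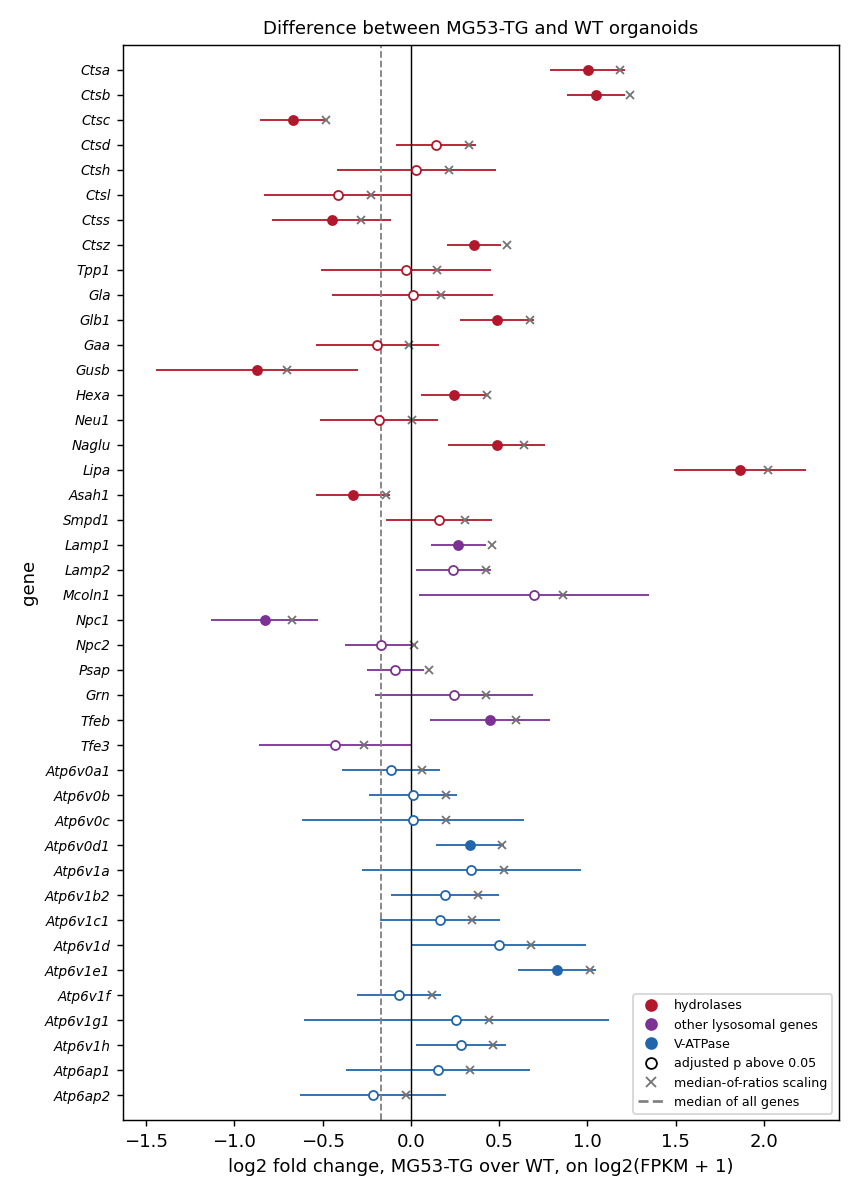
Log2 fold change of MG53-TG over WT on the log2(FPKM + 1) scale (horizontal axis) for the 42 members (vertical axis), with 95% intervals from limma; filled points passed the threshold, crosses are the values with median-of-ratios scaling and the dashed line is the median of all genes, -0.17. Lipa, Ctsb, Ctsa and Atp6v1e1 stand farthest to the right, Gusb, Npc1 and Ctsc farthest to the left, and 11 of 14 V-ATPase values are above 0.

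The hydrolases were then set against the V-ATPase within each sample. The mean log2(FPKM + 1) of the 19 hydrolases was 4.52, 4.48, 4.62 and 4.53 in the WT samples and 4.78, 4.80, 4.58 and 4.56 in the MG53-TG samples. For the 14 V-ATPase genes it was 5.07, 5.07, 4.92 and 5.08 in WT and 5.25, 5.35, 5.19 and 5.11 in MG53-TG. The V-ATPase means did not overlap between the groups, by a narrow margin, at 5.08 in WT sample 4 and 5.11 in MG53-TG sample 4. The WT sample 4 mean includes the low Atp6v1a value of 10.9 FPKM, against 26.2 to 28.8 FPKM in the other WT samples. The means without Atp6v1a were not computed. The hydrolase mean of WT sample 3 lay above those of MG53-TG samples 3 and 4. The hydrolase mean less the V-ATPase mean was -0.55, -0.58, -0.30 and -0.55 in WT and -0.47, -0.54, -0.61 and -0.55 in MG53-TG. The groups overlapped, with WT sample 3 the highest. With median-of-ratios scaling the hydrolase means no longer overlapped, at 4.37 to 4.52 in WT and 4.72 to 4.78 in MG53-TG. Under this scaling the V-ATPase means were at 4.81 to 4.96 in WT and 5.25 to 5.34 in MG53-TG. Within the hydrolases the log2 fold changes ran from -0.87 to 1.86 and within the V-ATPase from -0.22 to 0.83.

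The MG53-TG samples were not alike. In 11 of 19 hydrolase genes, samples 3 and 4 both lay below samples 1 and 2, and in 2 both lay above. The counts were 1 below and 3 above among the 9 other lysosomal genes, and 5 below and 3 above among the 14 V-ATPase genes. Over all genes tested both lay below in 42.3% and above in 20%. With median-of-ratios scaling the hydrolases had 6 below and 9 above, and Ctsl, Gla, Gaa, Gusb, Neu1 and Ctsh were the 6 below. Under the same scaling the other lysosomal genes had 0 below and 7 above, the V-ATPase 3 below and 7 above, and all genes 28.2% below and 32.6% above. The mean log2 level of the proliferation markers in the MG53-TG samples was 4.87, 4.97, 3.62 and 2.95, so samples 3 and 4 were also the lowest there, against 5.50 to 5.63 in WT. That of the enterocyte markers was 8.77, 8.82, 9.12 and 9.21, highest in samples 3 and 4, against 5.63 to 5.78 in WT. The part of either in the hydrolase values was not tested.

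**Figure D4:**
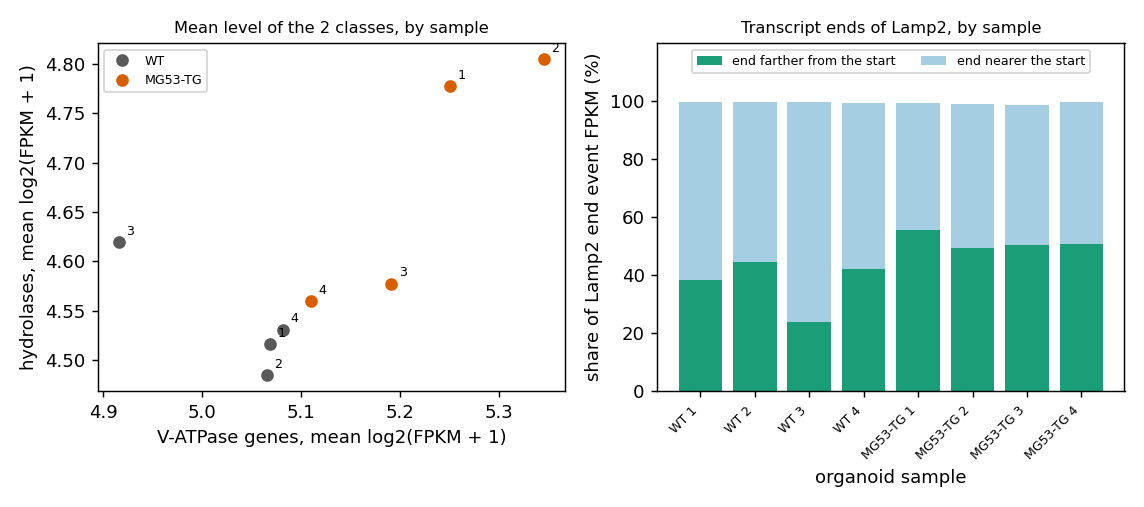
Left, the mean log2(FPKM + 1) of the 19 hydrolases (vertical axis) against that of the 14 V-ATPase genes (horizontal axis). Each sample is a point numbered within its group. The V-ATPase means of the MG53-TG samples, 5.11 to 5.35, lie narrowly above those of the WT samples, 4.92 to 5.08. The highest WT mean is that of sample 4, which includes its low Atp6v1a value. Right, the share of the Lamp2 transcript end FPKM in percent (vertical axis, from 0) at its pair of main ends in each sample; the end farther from the start takes 24.0% to 44.7% in WT and 49.4% to 55.6% in MG53-TG.

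Within the members, the use of start and end sites was described from the events with at least 10% of a gene's FPKM. Lamp2 lies on the minus strand of the X chromosome and has alternative last exons, which give its isoforms their different membrane anchors and tails. The end farther from the start (chrX:38405062-38405571) took 38.3%, 44.7%, 24.0% and 42.1% of the end FPKM in WT and 55.6%, 49.4%, 50.5% and 50.8% in MG53-TG. The groups did not overlap in this share. The farther end was at 23.8, 32.2, 13.7 and 29.2 FPKM in WT and 43.9, 38.9, 38.7 and 37.1 FPKM in MG53-TG. The nearer end (chrX:38419507-38421851) overlapped in FPKM, with 38.1, 39.7, 43.4 and 39.8 in WT and 34.5, 39.0, 37.1 and 35.8 in MG53-TG, while its mean share was 62.4% and 47.7%. These shares were not tested, and how often such shares do not overlap among all genes was not computed. Among the members with several main starts or ends, the groups overlapped in the shares of Gaa, Mcoln1, Atp6v0c and Atp6v1a. In Mcoln1 the high WT sample 2 drew 77.9% of its start FPKM from a site at chr8:3505779-3505943 that took at most 0.00236% in the other samples. In Atp6v1a the low WT sample 4 had 21.4% at the main start (chr16:44138948-44139196), which took 84.8% to 92.4% in the other samples. The starts of Atp6v0c shared the FPKM unevenly in both groups, with 22.6% to 87.5% at chr17:24169603-24169702. Inclusion of skipped exons could be compared for 5 exons of 5 members (Ctsa, Atp6v0b, Gusb, Ctsh and Atp6v1c1) among 1186 exons, of which 1.01% passed the threshold in limma. Of the 5 exons, 0 passed and 0 had an unadjusted p under 0.05. The nearest was the Gusb exon chr5:130000361-130000542 on the minus strand, included at 94.0%, 97.8%, 97.7% and 96.7% in WT and 92.5%, 91.8%, 94.8% and 80.4% in MG53-TG (limma, adjusted p = 0.489).

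Set beside the promoter motif, 5 of the 12 members with CACGTG were higher in MG53-TG (Ctsa, Glb1, Naglu, Lamp1 and Atp6v0d1), 0 were lower, also at an unadjusted p under 0.05 in limma, and 7 did not pass, with a median log2 fold change of 0.30. Of the 22 members with a promoter entry but without the motif, 5 were higher, 3 lower and 14 did not pass, with a median of -0.01. Among all genes tested 15.5% were higher and 28.9% lower, 44.4% in either direction, with a median of -0.17. The members with the largest increases fell on both sides. Ctsa held the motif near an annotated start 900 bases downstream of the start with most of its FPKM. Ctsb had no promoter in the collection, and the letters were not in the windows of Lipa and Atp6v1e1. Within the motif genes, Ctsl and Gaa had log2 fold changes below 0 without a call. The split is a description without a test.

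Further genes of the pathway were read from 5 lists, of which 107 genes were tested. In all, 25 were higher and 12 lower, a share called of 34.6% against 44.4% of all genes, and with median-of-ratios scaling 31 were higher and 6 lower. Among 27 further hydrolases 7 rose and 2 fell, a share called of 33.3%. Ggh, γ-glutamyl hydrolase of folate breakdown, rose by 0.80 and Fuca1, α-fucosidase, by 0.76 on the log2 scale (adjusted p = 0.000743 and 0.000369). Scpep1, a serine carboxypeptidase, and Manba, β-mannosidase, were lower, with log2 fold changes of -0.37 and -0.35, neither of which passed with median-of-ratios scaling.

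Among 25 genes for lysosomal membrane proteins and sorting 6 were higher and 6 lower, a share called of 48% against 44.4% of all genes. Gga2, an adaptor that sorts hydrolases at the Golgi, had 16.5 ± 1.04 FPKM in WT and 39.7 ± 3.64 FPKM in MG53-TG (SD, n = 4), a log2 fold change of 1.22 (SE 0.10, adjusted p = 3.44e-05). Cln3, a lysosomal membrane protein, and Ctns, the cystine exporter, had log2 fold changes of 0.68 and 0.65 (adjusted p = 0.00224 and 0.0103). Sort1, sortilin, a sorting receptor for hydrolases and prosaposin, fell, with 15.8 ± 0.725 FPKM in WT and 5.61 ± 1.48 FPKM in MG53-TG (SD, n = 4), a log2 fold change of -1.38 (SE 0.16, adjusted p = 0.000291). Cd68, a LAMP family glycoprotein used as a macrophage marker, had 6.14 ± 2.37 FPKM in WT and 0.935 ± 0.34 FPKM in MG53-TG (SD, n = 4), a log2 fold change of -1.84 (SE 0.25, adjusted p = 0.000554). Mcoln2, a channel related to Mcoln1, was lower as deposited (log2 fold change -0.59, SE 0.17, adjusted p = 0.02) but did not pass with median-of-ratios scaling.

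Of 11 other V-ATPase subunit isoforms and interactors 4 were higher and 0 lower in limma, with 2 lower at an unadjusted p under 0.05. The share called was 36.4%, against 44.4% of all genes. Tcirg1, the a3 isoform of the V0 a subunit, had 6.33 ± 0.939 FPKM in WT and 13.8 ± 2.17 FPKM in MG53-TG (SD, n = 4), a log2 fold change of 1.02 (SE 0.14, adjusted p = 0.000713), and Atp6v0a2, the a2 isoform, had 10.7 ± 3.1 FPKM in WT and 18.5 ± 2.92 FPKM in MG53-TG (SD, n = 4), a log2 fold change of 0.77 (SE 0.21, adjusted p = 0.0179). The a1 isoform gene Atp6v0a1, by contrast, gave -0.11 without a call. Atp6v0e, a small V0 subunit, had a log2 fold change of 0.58 (adjusted p = 0.00228). Ncoa7, a TLDc protein that binds the pump, was the other call, with overlapping groups (log2 fold change 0.66, SE 0.22, adjusted p = 0.038). Its MG53-TG values were 1.32, 1.43, 2.81 and 2.60 FPKM, and without samples 3 and 4 the log2 fold change was 0.33 (adjusted p = 0.248).

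Among 20 regulators of mTORC1 and TFEB 3 were higher and 1 lower, a share called of 20% against 44.4% of all genes. Lamtor2 and Lamtor4, subunits of the Ragulator complex that docks mTORC1 on the lysosome, had log2 fold changes of 0.57 and 0.49 (adjusted p = 0.00432 and 0.00644), and Rragd, a Rag GTPase gene that TFEB activates, had 16.3 ± 0.385 FPKM in WT and 22.2 ± 1.64 FPKM in MG53-TG (SD, n = 4), a log2 fold change of 0.42 (SE 0.09, adjusted p = 0.00568). Ppp3cb, a catalytic subunit of calcineurin, which dephosphorylates TFEB, fell (log2 fold change -0.74, SE 0.10, adjusted p = 0.000634). Among 24 autophagy genes 5 were higher and 3 lower, a share called of 33.3%. Atg9b, a lipid scramblase of autophagosome growth, had 16.1 ± 4.76 FPKM in WT and 35.5 ± 6.01 FPKM in MG53-TG (SD, n = 4), a log2 fold change of 1.12 (SE 0.19, adjusted p = 0.00211). Of the 5 ATG8 family genes in this list 2 were higher, 1 was lower, Map1lc3a had no call (-0.015, adjusted p = 0.978) and Map1lc3b had no value. Gabarapl2 and Gabarap had log2 fold changes of 0.62 and 0.55, and Gabarapl1 of -0.59 (adjusted p = 0.000796, 0.00122 and 0.0125). Atg7, the E1-like enzyme that activates them, was at -0.53 (adjusted p = 0.0105), and Wipi1, a phosphoinositide-binding protein, was at -0.38 (adjusted p = 0.0432) and did not pass with median-of-ratios scaling. The named genes of the 5 lists with a call kept their sign under both quantile normalization and median-of-ratios scaling, while Map1lc3a turned to 0.15 and 0.14. Manba, Wipi1 and Mcoln2 did not pass with quantile normalization either. With the replicate number as a block in limma the calls of Manba and Wipi1 were lost (adjusted p = 0.0568 and 0.0856). Without MG53-TG samples 3 and 4 the calls of Gabarapl1, Atg7, Manba and Wipi1 were lost too (adjusted p = 0.0755, 0.058, 0.0697 and 0.0579). On leaving out each sample in turn, the calls of Manba, Wipi1, Ncoa7 and Mcoln2 held in 1, 2, 3 and 7 of 8 fits, and those of the other named genes in all 8.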

How the data were processed

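Total RNA of 4 WT and 4 MG53-TG organoid samples was sequenced by the authors, whose submitters' processing notes name cutadapt 1.9.1, HISAT2 2.0.1, HTSeq 0.6.1, DESeq2 and mm10. The authors deposited FPKM values per transcript event (start, end, skipped exon and other types) and sample, with no read counts, so the depth is unknown, no counting interval was computed and count tests were not run. The tool that made the events and the strandedness of the library are not given in the sources used here. Reads of genes that overlap on the other strand, as annotated for Ctsa, Ctsb, Ctsc, Ctsz, Hexa, Lamp1, Npc1 and Atp6v1e1, therefore cannot be told apart with certainty, nor those of Tmppe within Glb1.

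Events named for a gene were kept where their coordinates matched its exons in GENCODE vM21 (GRCm38). A gene's value was the sum of its start events, or of its end events where that mean was higher (33 and 9 of the members). A gene absent from a sample counted as missing where the median of the other samples in the group reached 0.5 FPKM, and as 0 elsewhere. No member had a missing value. Log2(FPKM + 1) was compared with limma 3.58.1 (eBayes with trend, two-sided) in R 4.3.3 over the 10841 genes whose mean reached 0.5 FPKM. The p-values were adjusted by Benjamini-Hochberg over all of these genes and the threshold was 0.05. The pseudocount shrinks the fold changes of low genes. For exon inclusion, limma was run on arcsine square roots. On simulated data for the 10841 genes, 82.5% of 200 genes changed by 1 on the log2 scale were recovered, and 43.5% of those changed by 0.5. All 8 simulated samples had the spread of the WT samples, and the changed genes were drawn from those not low in WT. In the data, pairs of WT samples differed by up to 0.190 (median absolute log2 difference) and pairs of MG53-TG samples by up to 0.353. Far more genes were also called than the 200 changed, so these shares do not give the recovery in this comparison. Python 3.11.15, numpy 2.4.6, pandas 2.3.3 and scipy 1.17.1 were used for the rest.

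The members, the lists and the tests were chosen with earlier results of these data known. Named from the further lists were up to 3 genes with the largest positive and negative log2 fold changes that passed and had no overlap between groups; Ncoa7 and Map1lc3a were added after their values were seen, and 1 gene that the rule selects is not reported here. Alternatives were a pseudocount of 0.1, no filter, a filter at 2 FPKM, the replicate number as a block, quantile normalization, median-of-ratios scaling, leaving out each sample, absent entries as 0, start or end events alone and no coordinate check. Leaving out MG53-TG samples 3 and 4 together was added after seeing the data. Replicates were compared pairwise, with median absolute log2 differences of 0.147 to 0.353, and no pair held the same values.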

Additional observations from a re-analysis of the deposited data

Results flagged for a closer look

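In 5 of the 84 groups of 4 values (42 members in 2 genotypes) a sample stood far from the other 3; chance alone gives this in about 1 in 20 groups. Among them Tpp1 was at 9.15 FPKM in MG53-TG sample 3, against 17.5 to 18.4 FPKM in the other MG53-TG samples. Mcoln1 was at 5.6 FPKM in MG53-TG sample 2, against 9.78 to 10.3 FPKM. Atp6v0b was at 32.2 FPKM in MG53-TG sample 3, against 38.1 to 39.2 FPKM. In WT sample 4, Atp6v1a was at 10.9 FPKM, against 26.2 to 28.8 FPKM in the other WT samples. Atp6v1c1 was at 21.2 FPKM in MG53-TG sample 4, against 15.3 to 16.1 FPKM. None of these genes passed the threshold as deposited.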

How the results depend on the processing

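Over the 42 members, leaving out each sample in turn gave 336 values, of which 293 kept their direction and their side of the threshold, and the other settings gave 457 values, of which 416 did. The cause of the exceptions was not tested. Called genes lost their call on leaving out a sample for Asah1 (WT sample 3), Ctss, Gusb, Hexa and Tfeb, as given with each gene. A change of sign came only in genes without a call. With median-of-ratios scaling these were Atp6v0a1 (0.065), Atp6v1f (0.12), Neu1 (0.0039), Npc2 (0.017), Psap (0.10) and Tpp1 (0.15), and with quantile normalization Atp6v0a1 (0.042), Atp6v0c (-0.13) and Tpp1 (0.12). With start events only they were Atp6v0a1 (0.061), Atp6v0b (-0.46) and Grn (-0.025), and with end events only Ctsh (-0.11). Without MG53-TG samples 3 and 4 together, a setting chosen after seeing the data, they were Atp6ap2 (0.11), Atp6v1f (0.075), Gaa (0.064), Neu1 (0.033) and Tpp1 (0.22). Leaving out single samples gave ranges of the log2 fold change across 0 for Atp6ap1 (-0.012 to 0.27), Atp6v0b (-0.054 to 0.075), Atp6v0c (-0.17 to 0.30), Ctsh (-0.10 to 0.17), Gla (-0.13 to 0.16) and Tpp1 (-0.11 to 0.20).

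The number of V-ATPase genes called higher was 4 with either median-of-ratios scaling or quantile normalization, against 2, and their median log2 fold change was 0.36, 0.26 and, without MG53-TG samples 3 and 4, 0.31, against 0.18 (0.12 to 0.27 on leaving out single samples). For the hydrolases the median was 0.21, 0.12 and 0.22 in these settings, against 0.03 (-0.072 to 0.17 on leaving out single samples), and 2 were called lower with median-of-ratios scaling, against 4 (2 to 4). For the other lysosomal genes the median was 0.42, 0.059 and, with start events only, -0.025, against 0.24 (0.056 to 0.27 on leaving out single samples). Of these genes 4 were called higher with median-of-ratios scaling, against 2 (1 to 3), and 1 with quantile normalization, no filter, start events only, the replicate block or without MG53-TG samples 3 and 4. Called lower were 2 with quantile normalization, end events only or without those samples, against 1. Of the further genes 6, 7 and 6 were lower with median-of-ratios scaling, quantile normalization and without those samples, against 12. Skipped exons passing over all genes numbered 0 with the replicate block, against 12 (4 to 16 on leaving out single samples). The replicate numbers did not pair the samples, with correlations of same-numbered deviations of 0.0827, 0.0175, 0.0948 and -0.0518; the replicate block called 4392 genes, against 4817, and among the members ended the calls of Hexa (0.25) and Tfeb (0.45) only. Since the depth is unknown, limits at low FPKM, as in Smpd1, Tfeb and Naglu, could not be computed.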
